A study of Mus musculus with 10 samples.

Results

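A set of 10 genes, listed as expressed in mouse liver before birth and turned down afterwards, was followed in livers of young mice that had lived through a knockdown of Sod2 in the womb: Afp, Gpc3, Igf2, H19, Dlk1, Meg3, Plagl1, Peg3, Mest and Cdkn1c. Each gene was read from the transcript cluster (the array's group of probes for a transcript) that carried its symbol alone, and where a gene had several of these, from the cluster with the highest mean. By this rule 9 of the 10 genes had a value, out of 22180 genes in all. H19 had no cluster of its own: its cluster is annotated to both H19 and Mir675, the microRNA gene inside it, and is reported here under both names and apart from the 9.

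The series holds 10 arrays of liver RNA from male mice aged 4 weeks, all of which carried Rosa26-rtTA, a doxycycline-dependent activator placed in a broadly active locus. The arrays of livers called adapted were 3 from mice that also carried SOD2 shRNA 1 and 3 from mice that carried SOD2 shRNA 2. Both are hairpins against the mitochondrial superoxide dismutase. The 4 control arrays came from littermates with rtTA alone. Of these, 1 belonged to the cohort of shRNA 1 and 3 to that of shRNA 2, without a statement of which. Pregnant dams ate doxycycline chow (625 mg/kg), and Sod2 was knocked down over embryonic days 0 to 12.5, so the activator acted in the whole embryo and not only in its liver. Each array is called a liver below. Whether every array stands for an animal of its own is not stated in the labels, and p-values here refer to the variation among these arrays, which may be technical. RNA came from 25 mg of whole liver, and a change in the number of cells of a type cannot be told apart from a change in RNA per cell.

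The fetal liver makes alpha-fetoprotein and large amounts of insulin-like growth factor 2, and hepatocytes silence both genes in the weeks after birth. Most of the other genes are imprinted, which means that only the copy from a particular parent is active. Many of them belong to a network that supports growth of the fetus and is turned down together in several organs as growth slows. Gpc3 is not imprinted but lies on the X chromosome, and Afp is not imprinted either.

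Several of the loci also carry microRNAs, which are shown because the array read H19 only together with its microRNA gene and had separate clusters named for Mir483, inside Igf2, and for Mir335, inside Mest. In RefSeq (GRCm38.p6) 6 microRNA genes lie inside these loci, with 10 mature sequences and 10 different seeds. The capitals mark the seed, bases 2 to 8, which pairs with target transcripts. The miR-675 sequences lie at chr7:142577112-142577133 and chr7:142577078-142577099 on the minus strand.
mmu-miR-675-5p: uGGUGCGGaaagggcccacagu
mmu-miR-675-3p: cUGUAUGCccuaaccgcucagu
mmu-miR-483-5p: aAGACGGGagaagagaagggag
mmu-miR-483-3p: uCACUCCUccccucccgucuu
mmu-miR-335-5p: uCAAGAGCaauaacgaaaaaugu
mmu-miR-335-3p: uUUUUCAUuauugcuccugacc

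Array medians over clusters lay between 4.06 and 4.17 on the log2 scale, and pairs of arrays correlated at 0.989 to 0.994 over genes. Albumin, the defining product of hepatocytes, stood at 13.70 to 13.82 in every array. Sod2 itself ranged from 10.24 to 10.49, with an adapted minus control difference of -0.01 (SE 0.08, limma adjusted p 0.986), which was measured after the knockdown period and does not check it. The third shRNA 2 liver and the fourth control stood apart in genes described further on, so the values that lean on them most are also given without them.

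At 4 weeks none of the 9 genes was called different between adapted and control livers, or between either hairpin and control, at an adjusted p under 0.05. The call rule was limma with Benjamini-Hochberg adjustment over all 22180 genes. With both hairpins together 0 of 9 genes passed, against 0.00451% of all genes (1 gene). For shRNA 1 the counts were 0 of 9 and 0% of all genes, and for shRNA 2 they were 0 of 9 and 0.00451% (1 gene). Between shRNA 1 and shRNA 2 they were 0 of 9 and 0.00902% (2 genes). So few genes of any kind passed that a count of 0 among 9 is no result about them, and the sizes of the differences are more informative.

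With both hairpins against control, 5 genes had positive and 4 negative differences, from -0.19 for Dlk1 to 0.23 for Afp, with a median of 0.02 beside 0.00 over all genes. For shRNA 1 the median was -0.05 with 3 positive, and for shRNA 2 it was 0.05 with 7 positive. These counts rest on few arrays. For shRNA 2, 3 genes were positive without its replicate 3 (median -0.06) and 4 without control replicate 2 (median -0.02). For shRNA 1, 1 was positive without control replicate 2, while dropping its own replicate 1 left 2 positive and dropping its own replicate 3 left 5. In the adapted comparison 3 were positive without shRNA 2 replicate 3, shRNA 1 replicate 1 or control replicate 2, each with a median of -0.03. At an unadjusted p under 0.05 the 9 genes gave 0 in the adapted comparison, 0 for shRNA 1 and 1 for shRNA 2, where all genes gave 7.11%, 6.47% and 6.79%. The shRNA 1 against shRNA 2 comparison gave 1 of 9 beside 5.35% of all genes. There 3 genes were positive and 6 negative, with a median of -0.20 beside 0.00 over all genes. Without shRNA 2 replicate 3 that median was -0.04, again with 3 positive. The 4 comparisons share samples, so they are not independent of each other.

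**Figure D1:**
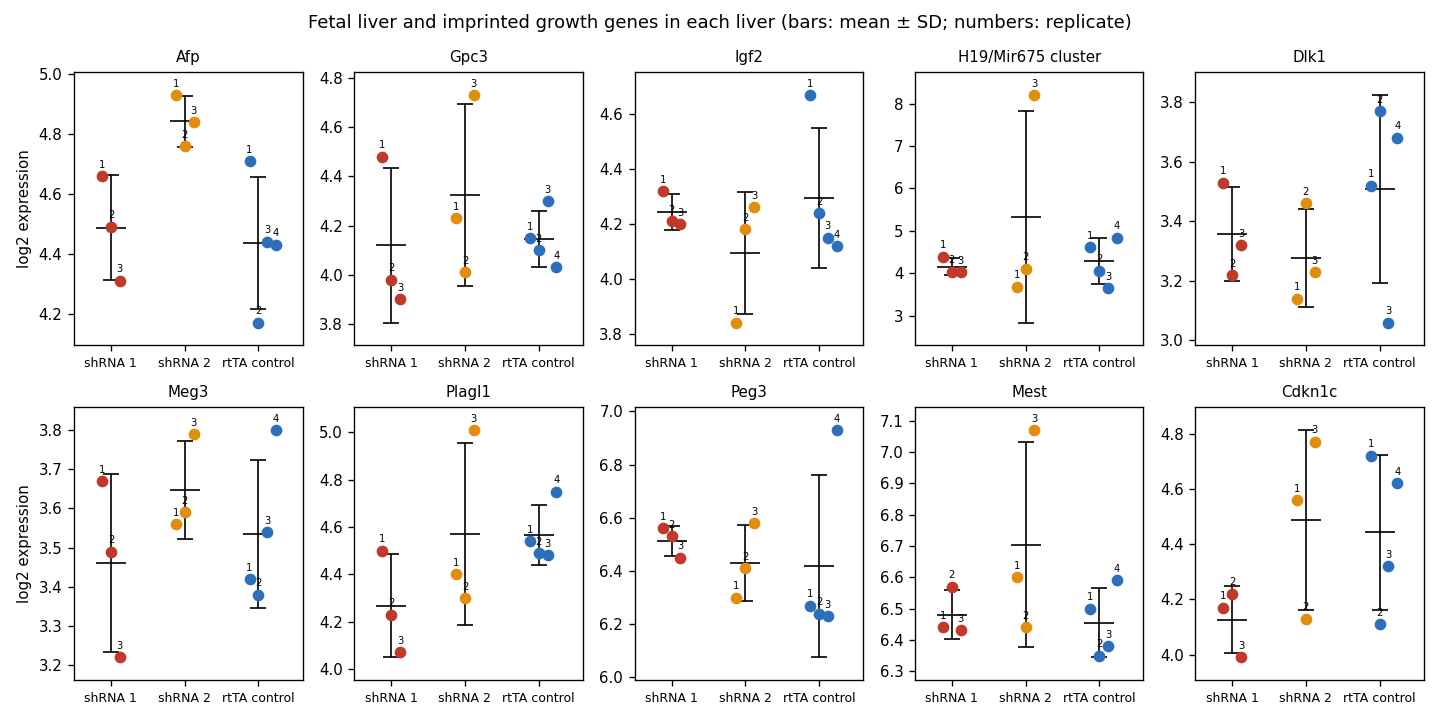
Log2 expression (vertical axes, a separate scale for each gene) of the 10 genes in shRNA 1, shRNA 2 and rtTA control livers, with 1 point per array marked by its replicate number, and bars for the mean ± SD (n = 3, 3 and 4). Most groups overlap, the shRNA 2 livers are all above the controls for Afp, and the third shRNA 2 liver stands at 8.20 in the panel for the cluster of H19 and Mir675.

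Afp encodes alpha-fetoprotein, the main plasma protein of the fetus and a relative of albumin. It read 4.66, 4.49 and 4.31 in shRNA 1 livers and 4.93, 4.76 and 4.84 in shRNA 2 livers, against 4.71, 4.17, 4.44 and 4.43 in controls. All 3 shRNA 2 livers were above all 4 controls, while the shRNA 1 livers lay within the control range. Afp was the only one of the 9 genes whose shRNA 2 and control values did not overlap, as was so for 6.61% of all genes. The same count was 0 of 9 for shRNA 1 (all genes 7.65%) and 0 of 9 for both hairpins together (all genes 1.5%).

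The Afp difference between shRNA 2 livers and controls was 0.41 (SE 0.13, 95% interval 0.12 to 0.69, or 1.33-fold with an interval of 1.09 to 1.61). The unadjusted p was 0.00826, but the limma adjusted p was 0.716, and the exact two-sided permutation test of 3 against 4 arrays gave 0.0571, where the smallest possible is 0.0286. In shRNA 1 livers the difference from control was 0.05 (SE 0.13, 95% interval -0.23 to 0.33). For both hairpins together it was 0.23 (SE 0.11, 95% interval -0.01 to 0.47, limma adjusted p 0.721), with 0.14 without control replicate 2 and 0.32 without control replicate 1. Between shRNA 1 and shRNA 2 livers it was -0.36 (SE 0.14, limma adjusted p 0.865), with all 3 shRNA 1 values under all 3 shRNA 2 values. Afp was also the only one of the 9 genes without overlap between the hairpins, as was so for 10.8% of all genes.

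The Afp promoter window is shown because Afp was the gene with this separation, and because factors known to bind and silence it were also measured. It is the RefSeq window at chr5:90490464-90490763 on the plus strand (GRCm38.p6), which spans the start of the gene. Capitals mark the core of the HNF1 motif (GTTAAT) and the motif known from core promoters (TATAAA). Each was searched on both strands and found 1 time, and they do not overlap. Only these exact bases are marked, so the window may hold other forms of the HNF1 motif.
Afp window: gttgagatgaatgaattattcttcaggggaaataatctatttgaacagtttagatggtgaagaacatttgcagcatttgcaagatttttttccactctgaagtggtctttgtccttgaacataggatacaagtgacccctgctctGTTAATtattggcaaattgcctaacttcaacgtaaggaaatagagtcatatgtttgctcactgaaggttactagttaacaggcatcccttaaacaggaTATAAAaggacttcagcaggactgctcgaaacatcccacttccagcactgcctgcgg

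GTTAAT is held by 7.1% of 32851 windows of this kind and TATAAA by 13.6%. Zhx2, a repressor of Afp, H19 and Gpc3 in mouse liver after birth, read 6.69, 6.69 and 6.97 in shRNA 1 livers and 6.72, 6.70 and 6.65 in shRNA 2 livers, against 6.46, 6.86, 6.65 and 6.48 in controls. Zbtb20, another repressor of Afp, read 8.70, 8.91 and 8.64 in shRNA 1 livers, 8.55 to 8.58 in shRNA 2 livers and 8.64 to 8.76 in controls. All 3 shRNA 2 values of Zbtb20 were below all 4 controls (all genes without overlap, 6.61%), with a difference of -0.12 (SE 0.09, limma adjusted p 0.864), while the shRNA 1 difference was 0.07 (SE 0.09, limma adjusted p 0.947). Zhx2 overlapped with control and differed by 0.17 in shRNA 1 and 0.08 in shRNA 2 livers (SE 0.12 each, limma adjusted p 0.864 and 0.944). These repressors were named after their values had been seen. Of the genes beside Afp in the albumin family, Alb differed by 0.02 (SE 0.07) and Afm, which encodes afamin, by 0.11 (SE 0.11) in the adapted comparison, with limma adjusted p of 0.976 and 0.885.

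Gpc3 encodes glypican 3, a heparan sulfate proteoglycan of the cell surface that restrains growth and is made by fetal hepatocytes. It read 4.48, 3.98 and 3.90 in shRNA 1 livers and 4.23, 4.01 and 4.73 in shRNA 2 livers, against 4.15, 4.10, 4.30 and 4.03 in controls. Both hairpin groups spread on either side of the control range, with shRNA 1 replicate 1 and shRNA 2 replicate 3 above it. The adapted minus control difference was 0.08 (SE 0.15, 95% interval -0.24 to 0.39, limma adjusted p 0.949). Without the third shRNA 2 liver it was -0.03, so its sign rests on that liver. The other 5 glypicans had 0 calls and a median difference of -0.05, with Gpc4 at -0.10, Gpc6 at 0.14 and Gpc1 at -0.05 (limma adjusted p 0.881, 0.933 and 0.937). Gpc6 also had its highest value, 6.71, in the third shRNA 2 liver.

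Igf2 encodes the fetal growth factor and is active on the paternal copy. It read 4.32, 4.21 and 4.20 in shRNA 1 livers and 3.84, 4.18 and 4.26 in shRNA 2 livers, against 4.67, 4.24, 4.15 and 4.12 in controls. The first control was the highest array and the first shRNA 2 liver the lowest, and the other 8 lay close together between 4.12 and 4.32. Igf2 differed by -0.13 in the adapted comparison (SE 0.12, 95% interval -0.39 to 0.13, limma adjusted p 0.881). Leaving out 1 array at a time gave -0.184 (without control replicate 4) to -0.003 (without control replicate 1).

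H19 is a long noncoding RNA of the maternal copy that lies next to Igf2, limits growth and is the precursor of miR-675. The cluster annotated to H19 and Mir675 read 4.39, 4.04 and 4.03 in shRNA 1 livers and 3.68, 4.11 and 8.20 in shRNA 2 livers, against 4.62, 4.06, 3.65 and 4.84 in controls. The third shRNA 2 liver stood 3.36 above the highest other array, a 10.2-fold gap, and 3.91 (15-fold) above the mean of the controls. The other 9 arrays overlapped between groups, and the other shRNA 2 livers averaged 3.89.

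In the third shRNA 2 liver 2 of 41345 clusters stood at least this far above every other array, and 2 did so in any of the 10 arrays. The other was Sult2a2, a hydroxysteroid sulfotransferase, with 7.92 there against at most 3.22 elsewhere. Because the gap rests on 1 liver, the shRNA 2 minus control difference of 1.03 had an SE of 0.88 and a 95% interval of -0.93 to 3.00. Its limma adjusted p in the fit of every cluster by itself was 0.907, where 0.00484% of clusters were called (2 of 41345), and the exact two-sided permutation p was 0.6. Without that liver the difference turned to -0.40.

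The cluster's neighbour Igf2 had no such value. In the third shRNA 2 liver Igf2 was 0.04 below the mean of the controls (difference -0.04), and Dlk1 was 0.28 below it (difference -0.28). The same liver was the highest array for 4 of the 9 genes, Gpc3, Plagl1, Mest and Cdkn1c, where 10.2% of all genes had their highest value in it. These exceeded the mean of the controls by 0.58, 0.45, 0.62 and 0.33. They exceeded the highest other array by 0.25 for Gpc3, 0.26 for Plagl1, 0.47 for Mest and 0.05 for Cdkn1c.

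**Figure D2:**
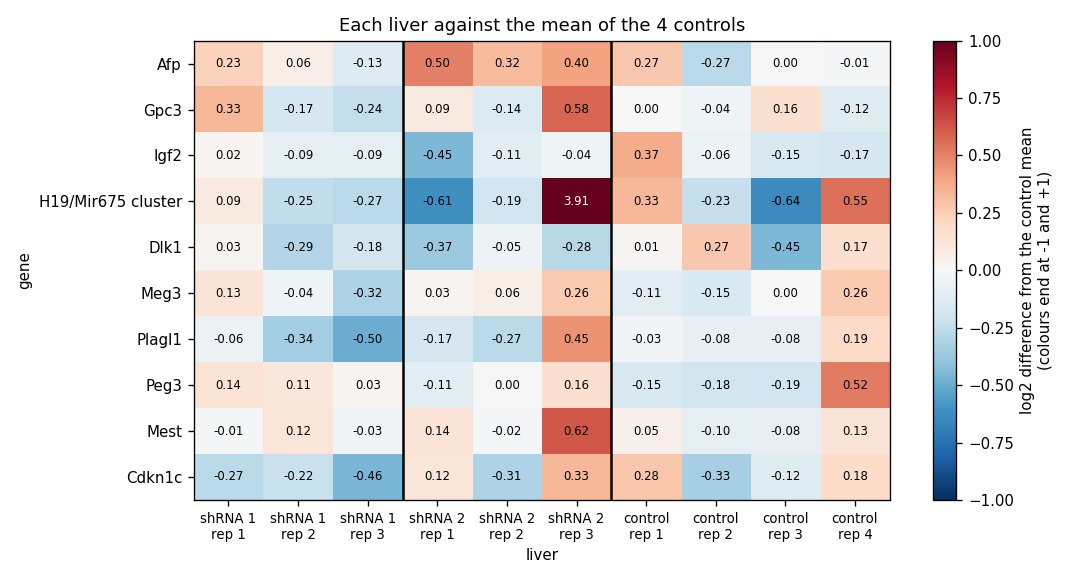
Difference of each liver from the mean of the 4 controls (log2, colour and printed value, colours ending at -1 and 1) for the 10 genes (rows) in shRNA 1, shRNA 2 and control livers (columns). The third shRNA 2 liver is high for Gpc3 (0.58), Plagl1 (0.45), Mest (0.62) and the cluster of H19 and Mir675 (3.91), and the fourth control is high for Peg3 (0.52).

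The third shRNA 2 liver also stood apart in genes that differ between the sexes in adult mouse liver. Elovl3, a fatty acid elongase higher in males, read 6.84 there against 10.51 to 12.53 in the other 9 arrays. Sult2a1, a sulfotransferase of the female pattern, read 5.55 there against at most 2.43 elsewhere, and Hao2, also higher in females, read 7.38 against at most 6.08. Cyp2b9, a cytochrome also higher in females, did not set this liver apart: it read 10.45 there, but also 9.80 to 10.14 in shRNA 1 livers and 9.35 in the fourth control. These genes were listed after the data had been seen. Genes of the sex chromosomes did not stand apart in any array, with Xist at 2.61 to 3.49 and Uty at 6.94 to 7.25. The proliferation list was 0.46 above control in this liver and 0.39 in the first shRNA 1 liver, with controls at -0.16 to 0.15, and the stellate cell and fibroblast list was 0.23 above control, against 0.18 in the fourth control. The part of any of these in the values of the 10 genes was not tested.

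Dlk1, a transmembrane protein of the paternal copy that marks fetal hepatoblasts and holds back differentiation, overlapped between all groups. It read 3.53, 3.22 and 3.32 in shRNA 1 livers and 3.14, 3.46 and 3.23 in shRNA 2 livers, against 3.52, 3.77, 3.06 and 3.68 in controls. The hairpin groups lay within the range of the controls, where replicate 3 was the lowest array of all. The adapted minus control difference was -0.19 (SE 0.14, 95% interval -0.48 to 0.10, limma adjusted p 0.83), with an exact two-sided permutation p of 0.233. It ranged from -0.34 without control replicate 3 to -0.10 without control replicate 2.

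Meg3 is a long noncoding RNA of the maternal copy on the same chromosome as Dlk1. It read 3.67, 3.49 and 3.22 in shRNA 1 livers and 3.56, 3.59 and 3.79 in shRNA 2 livers, against 3.42, 3.38, 3.54 and 3.80 in controls. All groups overlapped, and the difference was 0.02 (SE 0.11, 95% interval -0.22 to 0.26, limma adjusted p 0.984). Clusters annotated to Meg3 together with microRNA genes were not used for the gene. The cluster shared with Mir770 was brighter, with a mean of 4.25. It read 4.04 to 4.30 in shRNA 1 livers and 4.11 to 4.37 in shRNA 2 livers, against 4.09 to 4.58 in controls. The cluster shared with Mir1906-1 and Mir1906-2 had a mean of 3.40. Of the 9 genes, 7 were above the 40th percentile of mean level, at log2 3.98, and Dlk1 and Meg3 were below it. Mest and Peg3 were the highest of the 9, at percentiles 73.4 and 72.3 of all genes. A rank among cluster means does not show whether a gene was shut off.

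Plagl1 encodes a zinc finger transcription factor of the paternal copy that activates other imprinted genes, Igf2 and H19 among them. It read 4.50, 4.23 and 4.07 in shRNA 1 livers and 4.40, 4.30 and 5.01 in shRNA 2 livers, against 4.54, 4.49, 4.48 and 4.75 in controls. Of the 6 adapted livers, 4 were below all 4 controls and 1, the third shRNA 2 liver, was above them. The adapted minus control difference was -0.15 (SE 0.14, limma adjusted p 0.881), and -0.26 (SE 0.11, limma adjusted p 0.629) without that liver. Leaving out shRNA 2 replicate 2 gave -0.08, as did leaving out control replicate 4.

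In shRNA 1 livers Plagl1 was -0.30 from control (SE 0.16, 95% interval -0.66 to 0.06, limma adjusted p 0.82), with an exact two-sided permutation p of 0.0857. In shRNA 2 livers it was 0.00 from control, and -0.22 without the third replicate. A further Plagl1 cluster, not used for the gene, ranged from 2.07 to 2.63 over the arrays.

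Peg3 is a zinc finger gene of the paternal copy with roles in fetal growth. It read 6.56, 6.53 and 6.45 in shRNA 1 livers and 6.30, 6.41 and 6.58 in shRNA 2 livers, against 6.27, 6.24, 6.23 and 6.93 in controls. Every adapted liver lay above 3 of the controls and below the remaining control, replicate 4. The difference was 0.05 (SE 0.13, 95% interval -0.23 to 0.34, limma adjusted p 0.964), and 0.23 (SE 0.09, limma adjusted p 0.74) without the fourth control. The cluster annotated to Peg3 and Peg3os was likewise highest in that control, at 4.35 against 3.75 to 4.30 in adapted livers and 3.76 to 4.01 in the other controls.

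Some skeletal muscle genes, Acta1 and Myh4 most of all, stood apart in the fourth control and in the second shRNA 1 liver. Acta1, muscle actin, read 6.64 in that shRNA 1 liver and 6.89 in the fourth control, against 5.09 to 5.42 elsewhere. Myh4, a fast muscle myosin, read 5.14 and 5.62 in the same arrays, against 2.81 to 3.36 elsewhere. Over 8 muscle genes, listed after the data had been seen, the mean deviation from control was 0.48 in the second shRNA 1 liver and 0.57 in the fourth control. Acta1 and Myh4 are among the 8 and weigh most in these means. Tnnt3 went with them, at 5.55 in both arrays against at most 5.25 elsewhere. Not all did: Ckm and Pvalb had their highest values, 4.71 and 4.36, in the second control. Peg3 was 0.52 above the control mean in the fourth control but 0.11 above it in the second shRNA 1 liver, and the part of muscle RNA in Peg3 was not tested further.

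Mest is a paternal-copy gene for an enzyme-like protein of the endoplasmic reticulum. It read 6.44, 6.57 and 6.43 in shRNA 1 livers and 6.60, 6.44 and 7.07 in shRNA 2 livers, against 6.50, 6.35, 6.38 and 6.59 in controls. The third shRNA 2 liver stood above the rest, the first lay level with the highest control, and the others lay within the control range. In shRNA 2 livers the difference from control was 0.25 (SE 0.14, 95% interval -0.05 to 0.55, limma adjusted p 0.796), and 0.06 without that liver or 0.38 without replicate 2. For both hairpins it was 0.14 (SE 0.12, limma adjusted p 0.859), and 0.04 without that liver.

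Cdkn1c encodes a cyclin-dependent kinase inhibitor of the maternal copy that slows the cell cycle. It read 4.17, 4.22 and 3.99 in shRNA 1 livers and 4.56, 4.13 and 4.77 in shRNA 2 livers, against 4.72, 4.11, 4.32 and 4.62 in controls. The shRNA 1 livers lay at the low end of the control range, with the third replicate under it. The difference was -0.32 for shRNA 1 (SE 0.17, 95% interval -0.68 to 0.05, limma adjusted p 0.815) and 0.05 for shRNA 2 (SE 0.17, limma adjusted p 0.983). Between shRNA 1 and shRNA 2 it was -0.36 (SE 0.18, 95% interval -0.76 to 0.03, limma adjusted p 0.931), with -0.22 without shRNA 2 replicate 3 and -0.54 without shRNA 2 replicate 2. The third shRNA 1 liver was the lowest array for 4 of the 9 genes, Gpc3, Meg3, Plagl1 and Cdkn1c, where 8.85% of all genes had their lowest value in it.

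**Figure D3:**
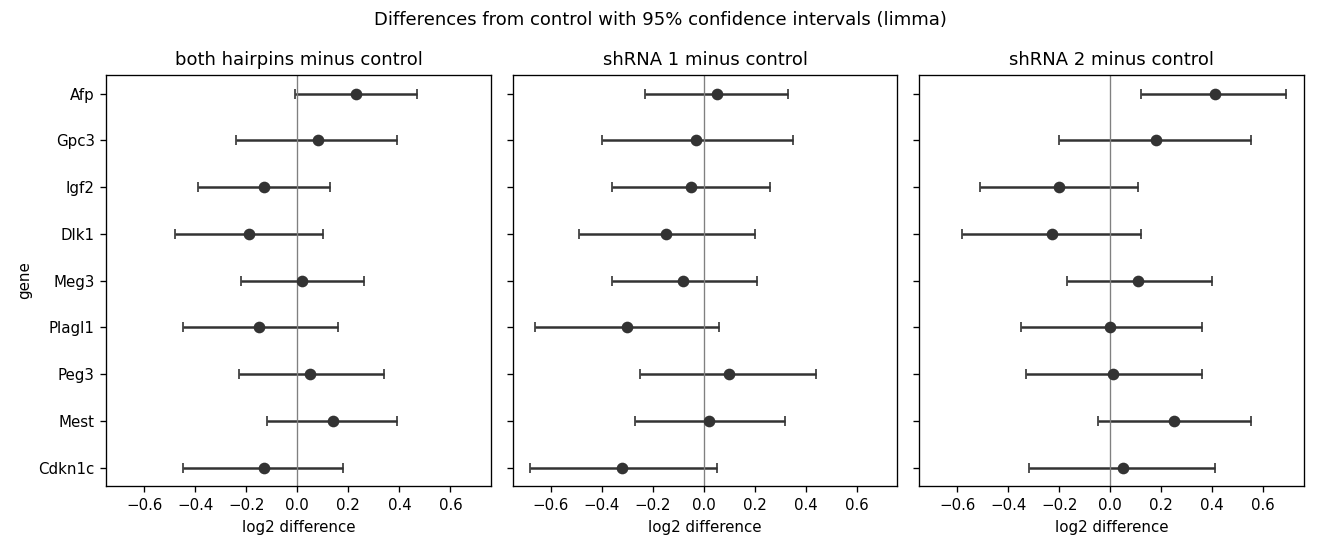
Log2 differences from control (horizontal axes) with 95% confidence intervals from limma for the 9 genes (rows), for both hairpins, shRNA 1 and shRNA 2. Of these intervals, the one for Afp in shRNA 2 livers (0.12 to 0.69) leaves out 0.

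The intervals are those of array signals, and whether each signal lay above background was not tested. No limit on a change in RNA is therefore read from them, least of all for Dlk1 and Meg3. The means of the clusters used for these lay below the 40th percentile. A return to fetal levels was not assessed, since no fetal liver was analysed here.

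Genes related to these were read from lists of the same pathways. Among 46 measured of 54 other imprinted genes 0 were called in any comparison, with 22 positive and a median of -0.01 in adapted livers. The 3 with the largest statistic were Slc22a2, an organic cation transporter, at 0.34 (SE 0.09, limma adjusted p 0.45), Nnat, which encodes neuronatin, at -0.31 (SE 0.09, limma adjusted p 0.539), and Tssc4 at -0.32 (SE 0.11, limma adjusted p 0.616). Slc22a2 read 2.96, 3.03 and 2.89 in shRNA 1 livers and 3.08, 3.00 and 3.15 in shRNA 2 livers, against 2.43, 2.82, 2.75 and 2.70 in controls, so that all 6 adapted livers were above all 4 controls (all genes without overlap, 1.5%). Every one of these values lay below the 40th percentile of mean level, at log2 3.98. Slc22a2 was also picked for the largest statistic among 46 genes, so the share of single genes is no measure of how rare this is.

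Among 24 measured of 29 other genes of fetal liver and of the slowing of growth, 0 were called, with 13 positive and a median of 0.02. The largest statistic was that of Sox9, a transcription factor of bile duct cells and hepatoblasts. It read 4.95, 5.36 and 5.46 in shRNA 1 livers and 5.51, 5.46 and 5.53 in shRNA 2 livers, against 5.73, 6.06, 5.94 and 5.63 in controls. All 6 adapted livers were below all 4 controls (all genes without overlap, 1.5%), with a difference of -0.46 (SE 0.12, limma adjusted p 0.422). Sox9 too was picked for its statistic, here among 24 genes. The list of bile duct cell markers, which holds Sox9, had 0 calls among 5 measured and a median of -0.02. Spink1, a trypsin inhibitor, and Cd24a, a surface protein of progenitor cells, differed by 0.18 and 0.23 (limma adjusted p 0.659 and 0.744).

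Regulators that silence fetal genes or maintain imprints gave 0 calls among 35 measured of 37, with 11 positive and a median of -0.04. Trim35 was at -0.30 (SE 0.12), and the liver transcription factors Foxa3 and Hnf4a were at -0.31 (SE 0.14) and -0.18 (SE 0.08), with limma adjusted p from 0.649 to 0.707. Onecut1 had the widest difference of this list, -0.85 (SE 0.50, limma adjusted p 0.779), and read 7.06, 6.47 and 6.63 in shRNA 1 livers and 8.66, 6.69 and 7.63 in shRNA 2 livers, against 7.44, 6.53, 8.63 and 9.57 in controls. Its difference was -1.32 in shRNA 1 (SE 0.60, limma adjusted p 0.743) and -0.38 in shRNA 2 livers (SE 0.60, limma adjusted p 0.947).

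The insulin-like growth factor axis also had 0 calls among 20, with 11 positive and a median of 0.02. Igf1, the growth factor that liver makes after birth, read 10.38 to 10.62 in shRNA 1 livers and 10.54 to 10.81 in shRNA 2 livers, against 10.35 to 10.89 in controls. Igf2r, the receptor that clears Igf2, differed by -0.05 (SE 0.09). Stc2, a secreted inhibitor of the protease that frees these growth factors, had the largest statistic at -0.36 (SE 0.12, limma adjusted p 0.593), ahead of the binding proteins Igfbp7 at 0.15 and Igfbp4 at -0.10. Of the 6 other cyclin-dependent kinase inhibitors 0 were called and 3 were positive, with Cdkn2c at 0.26 (SE 0.11, limma adjusted p 0.676), Cdkn2a at 0.09 and Cdkn1b at -0.05.

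**Figure D4:**
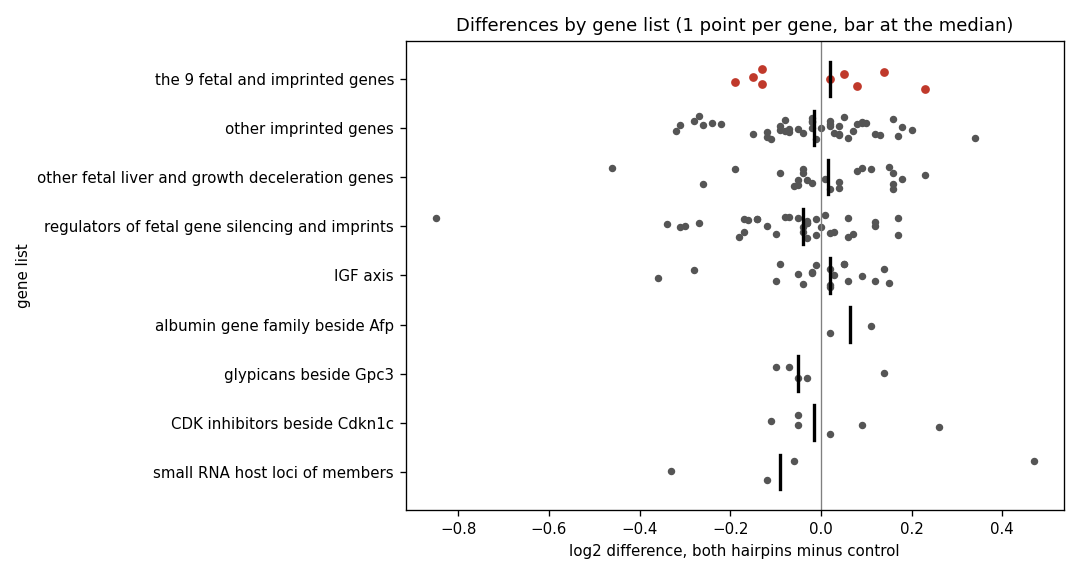
Log2 differences between both hairpins and control (horizontal axis), 1 point per gene with a bar at the median, for the 9 genes (red, top row) and the lists of related genes (grey, rows). List medians lie between -0.09 and 0.07, and the farthest points are Onecut1 at -0.85 and Mir335 at 0.47.

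The clusters named for microRNA genes inside these loci give a reading beside their hosts, although the array does not separate a mature microRNA from its precursor. Mir483, whose sequences are given above and which lies inside Igf2, read 7.12, 6.66 and 6.70 in shRNA 1 livers and 7.04, 6.70 and 6.99 in shRNA 2 livers, against 7.22, 7.18, 7.27 and 7.15 in controls. All 6 adapted livers were below all 4 controls (all genes without overlap, 1.5%), with a difference of -0.33 (SE 0.11, limma adjusted p 0.56). Mir483 had the largest statistic of the 4 measured. Mir335, inside Mest, read 2.51, 3.20 and 2.74 in shRNA 1 livers and 2.85, 3.45 and 3.29 in shRNA 2 livers, against 2.54, 2.83, 2.44 and 2.32 in controls. These groups overlapped. Its difference was 0.47 (SE 0.15, limma adjusted p 0.566). Mir370, a microRNA gene of the Dlk1 and Meg3 region, differed by -0.12 (SE 0.12, limma adjusted p 0.891). The list read here held 11 microRNA genes, some inside the members and others, such as Mir370, outside them. It left out Mir717 and Mir6384, which lie inside Gpc3. Of the 11, 4 had a cluster of their own, and 0 were called.

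Markers of the liver's cell types had 0 calls in every list of the adapted comparison. The median difference was 0.06 for hepatocytes, 0.01 for stellate cells and fibroblasts, 0.08 for endothelium and 0.11 for macrophages. The summed level of the hepatocyte list ranged from 15.58 to 15.67 in shRNA 1 livers and 15.46 to 15.52 in shRNA 2 livers, against 15.45 to 15.52 in controls. The proliferation list had 9 of 9 positive with a median of 0.23 and 0 calls. Its summed level ranged from 9.13 to 9.56 in shRNA 1 livers and 9.20 to 9.67 in shRNA 2 livers, against 9.01 to 9.28 in controls. The part of proliferation in the values of the 9 genes was not tested.

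Genes whose pattern over the 10 arrays was most like that of the widest-ranging of the 9 genes were picked by Pearson's r, as a description over arrays that share their normalization. For Plagl1 (range 0.94) these were Epas1 and Rpl41, each with r of 0.94. For Igf2 (range 0.83) they were B3gnt6 at 0.98 and Cdcp2 at 0.96, and for Gpc3 (range 0.82) Lrrc66 at 0.93 and Ly6g6e at 0.91. For the cluster of H19 and Mir675, chosen after its values were seen, Hsd3b1 had r of 0.98 and Kng1 0.96, which became 0.84 and 0.69 without the third shRNA 2 liver.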

How the data were processed

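RNA of mouse liver, in 10 samples, was hybridised to 1-colour Affymetrix whole-transcript mouse arrays, 1 per sample. The deposited log2 values per transcript cluster were made by the authors with Affymetrix Expression Console, per the submitters' processing notes. For its version, background correction, normalization and build, the status is: not given in the sources used here. Values ran from 1.40 to 13.82 and were used as deposited. Precision is limited by how few arrays there are.

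Of 41345 clusters, 23521 had 1 gene symbol, 1814 several and 16010 none in the platform annotation, and 23328 of the first matched the GRCm38.p6 gene table by Entrez identifier. Keeping the highest-mean cluster for the 1082 genes with several left 22180 genes. Groups came from the sample titles. A limma fit over all 10 arrays (limma 3.58.1, R 4.3.3) gave 4 comparisons, two-sided, with Benjamini-Hochberg adjustment over all genes, a threshold of 0.05 and no filter on level, since dim members would be lost. "Adapted" is the mean of both hairpin groups. Exact permutation tests of single genes had a smallest p of 0.00476 for 6 against 4 arrays and 0.0286 for 3 against 4. The fit was run on simulated data with known shifts, as a check on the estimated size. It is no check on how many real differences these arrays could call.

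The members and gene lists were chosen with earlier results of these data known. Named beside the members are the 3 genes of each list of related genes (not of cell type markers) with the largest moderated statistic in the adapted comparison, the 2 genes most correlated with each of the 3 members of widest range, and Sod2; other genes named were chosen after their values were seen. Sequences are from RefSeq. Figures used Python 3.11.15 and matplotlib 3.10.9. Alternatives were other normalizations, a filter at the 40th percentile of mean level, the mean of a gene's clusters, a replicate block, array weights, an intensity trend, fits with fewer groups, and leaving out each array. Chosen after seeing the data were a fit of every cluster by itself and another that left out 2 arrays.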

Additional observations from a re-analysis of the deposited data

Results flagged for a closer look

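Each gene was looked at in the 6 adapted livers and in the 4 controls for an array far from its neighbours by Dixon's gap test. Such an array was found in 4 of 20 sets. The nominal rate of the test is about 1 in 20, for independent sets of normally distributed values. These sets share arrays, and the rate over all genes was not computed, so 4 of 20 is no result about these genes. In adapted livers the sets found were the cluster of H19 and Mir675 at 8.20 in the third shRNA 2 liver, Mest at 7.07 in the same liver, and Igf2 at 3.84 in the first shRNA 2 liver, below the rest. In controls it was Peg3 at 6.93 in the fourth replicate.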

How the results depend on the processing

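The count of the 9 genes past the threshold stayed at 0 in all 4 comparisons and under every alternative run. Of 676 alternative values for single genes, 638 kept their sign and 38 turned it, and 0 crossed the threshold. Many of the 638 could not turn. The level filter, the intensity trend and the fits with fewer groups leave a gene's difference as it is. So does leaving out an array of a group that is not compared. The 638 is therefore no measure of how stable the signs are. Over all genes the counts ranged from 0 to 4 for adapted against control (1 in the main analysis), 0 to 25 for shRNA 1 (0), 1 to 2 for shRNA 2 (1) and 1 to 6 between hairpins (2); the highest for shRNA 1 came without shRNA 2 replicate 3 and control replicate 4. The replicate block does not pair these samples (same-numbered arrays correlated at -0.18 to 0.18). Only the controls have a replicate 4, so the block gave the differences found without control replicate 4 and is no separate check on them. In the adapted comparison both gave 0.035 for Gpc3 and -0.184 for Igf2. Values with the block kept their sign except Meg3 in shRNA 1, at 0.012. Array weights turned Plagl1 in shRNA 2 to -0.018. Without both of those arrays Gpc3 was -0.066 in adapted and -0.065 in shRNA 2 livers, Meg3 was 0.012 in shRNA 1, and in shRNA 2 Plagl1 was -0.154 and Cdkn1c -0.037. The cause was not tested.

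Leaving out each array in turn, adapted against control ranged over -0.025 to 0.154 for Gpc3, -0.033 to 0.106 for Meg3, -0.008 to 0.227 for Peg3 and -0.272 to 0.858 for the cluster of H19 and Mir675. In shRNA 1 against control it was -0.038 to 0.141 for Afp, -0.206 to 0.082 for Gpc3, -0.109 to 0.072 for Igf2, -0.180 to 0.046 for Meg3, -0.021 to 0.068 for Mest and -0.357 to 0.041 for H19 and Mir675. In shRNA 2 against control it was -0.025 to 0.334 for Gpc3, -0.217 to 0.141 for Plagl1, -0.058 to 0.186 for Peg3, -0.096 to 0.224 for Cdkn1c and -0.401 to 1.858 for H19 and Mir675, the last with a lowest value without the third shRNA 2 liver. Between hairpins it was -0.007 to 0.174 for Dlk1 and -2.001 to 0.259 for H19 and Mir675. For Afp in shRNA 2 the range was 0.318 to 0.497. Pseudocounts planned for linear values were not needed and were not run.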
